A study of Mus musculus with 2 samples.

Results

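Levels of 10 genes of the Notch pathway were compared between cultured mouse neural retinal progenitor cells (mNRPCs) and retina tissue. The genes were listed by name, and the rule uses no measured value. They comprise the receptors Notch1, Notch2 and Notch3, the ligands Dll1 and Jag1, the DNA-binding factor Rbpj, and the transcriptional repressors Hes1, Hes5, Hey1 and Hey2. All 10 were found among the 31253 genes of the deposited table, on 20 of its transcript rows. The mNRPC library came from C57BL/6 retina cells grown for 24 passages, and the study's methods describe isolation from adult neural retina and growth in chemically defined medium that held bFGF, a mitogen of neural progenitors, and CHIR99021, which inhibits the kinase GSK3. The retina library came from C57BL/6 retina tissue without culture, and below the culture stands for the mNRPC library and the tissue for the retina library. An age for the tissue was not in the labels. The labels name no altered gene in either group. Each group had 1 library, so replicate error is unknown for every difference below and no test between the groups was made.

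Notch receptors span the membrane and are bound by ligands on neighbouring cells. Binding exposes the receptor to ADAM proteases and then to gamma-secretase, and the freed intracellular part enters the nucleus and joins RBPJ and Mastermind proteins on DNA. Hes and Hey genes are classical targets of this complex, and their proteins repress proneural genes. In the developing retina this signalling holds progenitor cells undifferentiated, and in the mature retina several of its genes are used by Müller glia and by blood vessels.

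Levels are in FPKM, a fragment number divided by transcript length and by the size of the library, summed over the transcripts of a gene. FPKM is per length, so genes can be compared within a library. Log2 ratios were taken after adding 1 to both FPKM values, mNRPC over retina, which understates the change of low genes, and higher or lower below means a log2 ratio of at least 1 in size in a gene with at least 1 FPKM in 1 of the libraries. Fragment numbers were estimated from the FPKM values, since counts were not used here. Counts of genes past 2-fold, and the words within 2-fold, refer to this ratio. A fold given for a single gene is the plain ratio of its FPKM values. Where a pair of FPKM values is given, the first is the culture and the second the tissue. The libraries came to an estimated 6560000 fragments for mNRPC and 4940000 for retina. Intervals are exact 95% intervals on these estimated fragments and cover counting error only, and they are approximate because the depth is estimated. A level of 0 can be a failed estimate, so such a gene is named as listed at 0, and its log2 ratio and its count as lower rest on the listed value.

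Notch1, Notch2, Rbpj and Hes1 were higher in mNRPCs, while the ligand Jag1 and the repressors Hes5, Hey1 and Hey2 were lower. Of the 9 members that reached 1 FPKM, 4 were at least 2-fold higher in mNRPCs and 4 at least 2-fold lower, and Dll1 was within 2-fold. Of the lower members, Hes5 and Hey2 were counted on a listed 0. Among all 13780 genes compared, 24.5% were at least 2-fold higher and 30.0% at least 2-fold lower. The median log2 ratio was 0.41 over these 9 members and −0.12 over all genes compared. With members at both ends, the median describes none of the subgroups. Notch3 stayed under 1 FPKM in both libraries and was left out of these counts.

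**Figure D1:**
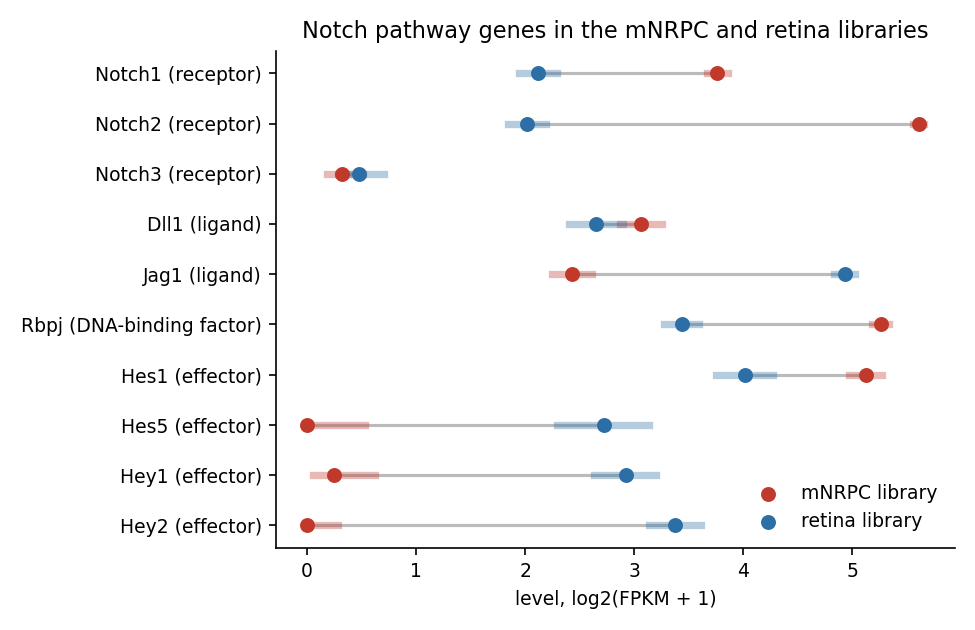
Level of each of the 10 genes as log2(FPKM + 1) (horizontal axis) in the mNRPC library (red) and the retina library (blue), 1 library each. Shaded bars are 95% intervals for counting error, grey lines join the libraries, and the intervals overlap for Notch3 and Dll1, and for the other 8 genes they lie apart.

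Hes5 and Hey2 were the members listed at 0 in the mNRPC library, and their promoter windows are shown because both windows hold the core motif bound by RBPJ, GTGGGAA. Sequences are from RefSeq (GRCm38.p6), 250 bases before to 50 bases after the gene's start, written 5′ to 3′ on the gene's strand, with each match of the motif on either strand in capitals.
Hes5, chr4:154960673-154960972, plus strand: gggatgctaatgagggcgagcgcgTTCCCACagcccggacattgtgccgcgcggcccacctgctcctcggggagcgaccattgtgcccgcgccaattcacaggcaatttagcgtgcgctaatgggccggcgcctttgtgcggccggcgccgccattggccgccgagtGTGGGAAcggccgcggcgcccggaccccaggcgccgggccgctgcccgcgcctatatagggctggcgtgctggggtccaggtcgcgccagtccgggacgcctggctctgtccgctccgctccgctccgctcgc
Hey2, chr10:30842734-30843033, minus strand: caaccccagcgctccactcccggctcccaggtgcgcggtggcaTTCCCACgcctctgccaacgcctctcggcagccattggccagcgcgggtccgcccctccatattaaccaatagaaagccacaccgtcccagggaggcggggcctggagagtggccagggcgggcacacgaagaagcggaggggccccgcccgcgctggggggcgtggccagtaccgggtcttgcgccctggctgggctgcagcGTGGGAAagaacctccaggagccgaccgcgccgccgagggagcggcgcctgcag
In the Hes5 window the motif began at position 168 from the 5′ end, and its reverse complement TTCCCAC at position 25. In the Hey2 window these were at positions 247 and 44. Of all 32851 promoter windows of this length, 6.38% held at least 1 match on either strand. Windows were found for 8 of the 10 members, with 2 windows each for Rbpj and Dll1, and not for Hes1 and Hey1. The windows of the other 6 members held no match to these letters. The shorter TGGGAA, which lies within GTGGGAA, was in 25.6% of all windows and also in both Rbpj windows. CACNAG, a sequence bound by Hes proteins, was on either strand in 42.5% of all windows, and among the members in those of Notch1, Notch2 and Notch3 and in 1 of the 2 Dll1 windows. A match is a string of letters and does not show binding.

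The receptors were compared first. Notch2 was at 47.8 FPKM in the culture and 3.05 in the tissue, a level 15.7-fold higher in mNRPCs (95% interval 13.4 to 18.5) and a log2 ratio of 3.59. This value was at percentile 96.6 of the log2 ratios of all genes compared. Notch1 was at 12.6 and 3.34 FPKM, 3.77-fold higher in mNRPCs (3.17 to 4.50), with a log2 ratio of 1.65. Notch3, known as a receptor of mural cells of blood vessels, was at 0.252 FPKM in the culture and 0.386 in the tissue, on an estimated 13.2 and 15.3 fragments. Its ratio of 0.652 had an interval of 0.288 to 1.46, so a difference was not detectable at this depth. Notch4, a receptor of endothelium, was at 0.0495 and 0.289 FPKM, the first value on an estimated 2.14 fragments.

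The make-up of the receptor genes differed between the libraries. Of the summed FPKM of Notch1 to Notch4, Notch2 held 78.8% in mNRPCs and 43.2% in retina, while Notch1 held 20.7% and 47.2%. Notch2 was thus at 3.80 times the level of Notch1 in mNRPCs and at 0.915 times in retina, where the counting intervals of both genes overlapped. Notch3 held 0.415% of the sum in mNRPCs and 5.47% in retina. The sum itself was 60.7 FPKM in the culture and 7.06 in the tissue. Shares within a library do not depend on how the library is scaled.

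**Figure D2:**
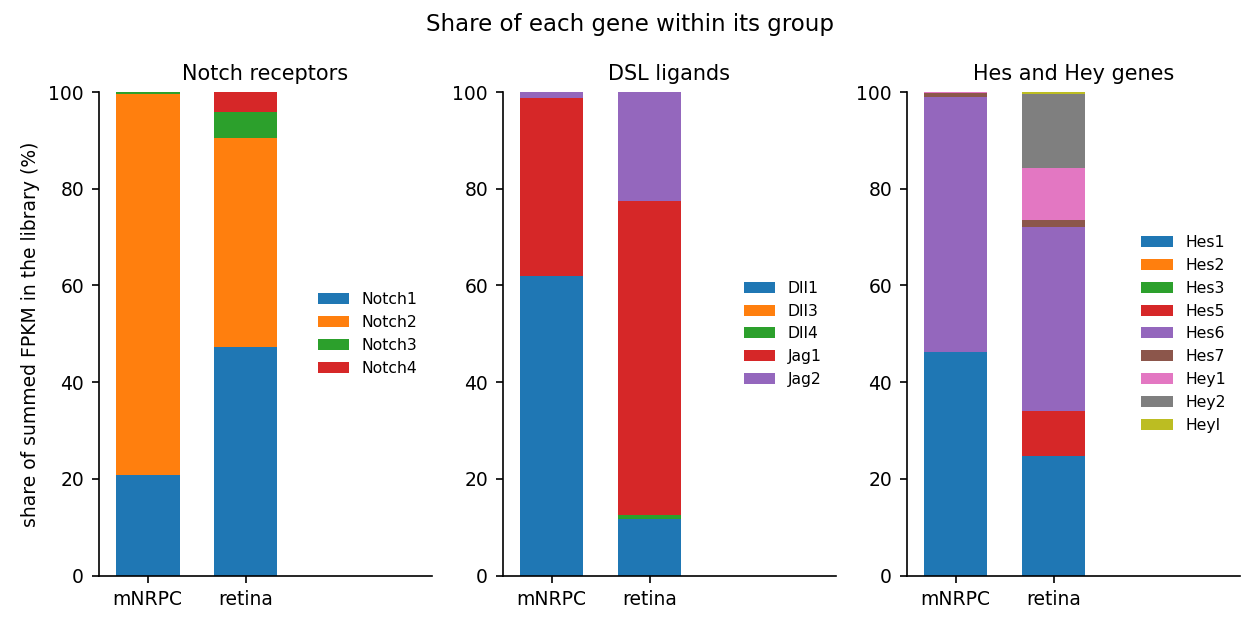
Share (%) of each gene in the summed FPKM of the Notch receptors, of the canonical ligands and of the Hes and Hey genes, with 1 bar per library. Notch2 takes 78.8% of the receptor sum in mNRPCs, and Jag1 takes 64.9% of the ligand sum in retina (85.4% with curated rows only). Hes1 with Hes6 fill nearly all of the Hes and Hey sum in mNRPCs.

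The ligand genes had a lower total in mNRPCs, 11.9 FPKM against 45.5 in retina over Dll1, Dll3, Dll4, Jag1 and Jag2. Jag1 was at 4.38 FPKM in the culture and 29.5 in the tissue, 6.74-fold lower in mNRPCs (95% interval 5.69 to 8.03), with a log2 ratio of −2.50. It was the member with the highest level in retina. Dll1, a ligand of neurogenic progenitors, was at 7.35 and 5.29 FPKM. Its ratio of 1.39 had a counting interval of 1.08 to 1.81, and its log2 ratio of 0.41 became −0.032 when both libraries were rescaled to a common FPKM sum. With that rescaling the all-gene median log2 ratio went from −0.12 to −0.57, and relative to it Dll1 was at 0.53 as deposited and 0.54 after it. Dll1 held 61.9% of the ligand sum in mNRPCs and 11.6% in retina, and Jag1 36.9% and 64.9%. With curated rows only the shares were 57.7% and 10.4% for Dll1 and 42.3% and 85.4% for Jag1. The leading ligand gene was therefore Dll1 in mNRPCs, at 1.68 times the level of Jag1, and Jag1 in retina, at 5.59 times the level of Dll1.

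The other ligand genes were low in mNRPCs. Jag2 was at 0.142 FPKM in the culture, an estimated 4.76 fragments, and at 10.3 in the tissue (log2 ratio −3.30). Most of this retina value stood on predicted transcripts, and the curated Jag2 row was at 0.943 FPKM in retina. On that row alone Jag2 stayed under 1 FPKM in both libraries and no longer counted as lower. With curated rows only, Jag2 held 2.87% of the ligand sum in retina in place of 22.6%. Dll4, an endothelial ligand, had 0.426 FPKM in the tissue and was listed at 0 in the culture, and Dll3 was listed at 0 in both. Dner, a neuronal Notch ligand outside the canonical family, was at 3.30 and 35.6 FPKM (−3.09).

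Rbpj, which brings the Notch complex to DNA and otherwise recruits corepressors, was at 37.3 FPKM in the culture and 9.83 in the tissue. The level was 3.80-fold higher in mNRPCs (95% interval 3.33 to 4.35), with a log2 ratio of 1.82. The Rbpj value was spread over 6 transcript rows. The leading row held 48.0% of the gene's FPKM in mNRPCs and 57.2% in retina, and with that row alone the log2 ratio was 1.51.

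Among the Hes and Hey members, Hes1 was the higher gene. Hes1 was at 33.9 FPKM in the culture and 15.2 in the tissue, 2.23-fold higher in mNRPCs (95% interval 1.79 to 2.80), with a log2 ratio of 1.11. Setting both libraries to a common FPKM sum (0.62) or trimmed mean scaling (0.99) put it below the 2-fold threshold. A predicted transcript held 4.93% of its FPKM in mNRPCs and 26.5% in retina, and with curated rows only the log2 ratio was 1.45.

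Hes5, Hey1 and Hey2 had values above 5 FPKM in retina, and in mNRPCs Hes5 and Hey2 were listed at 0 and Hey1 stood on under 3 estimated fragments. Hes5, which in the retina marks progenitors and Müller glia, had 5.60 FPKM in the tissue, an estimated 35.3 fragments, and was listed at 0 in the culture. For a transcript of its length, 0.359 FPKM in the culture corresponds to 3 fragments. Hey2 had 9.39 FPKM in the tissue and was listed at 0 in the culture, with 3 fragments worth 0.179 FPKM in mNRPCs. Hey1 was at 0.184 FPKM in the culture, an estimated 2.92 fragments, and at 6.57 in the tissue, a ratio of 35.7 between tissue and culture with a counting interval of 11.6 to 182. The log2 ratios were −2.72 for Hes5, −2.68 for Hey1 and −3.38 for Hey2. Their size was set largely by the pseudocount, and with a pseudocount of 0.1 they were −5.83, −4.55 and −6.57. They were below −1 under each pseudocount, scaling and choice of rows tried. For Hes5 and Hey2 this followed largely from the listed 0, which none of these choices changes. In bulk RNA, fewer cells of a type and less RNA per cell cannot be told apart.

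The Hes and Hey sum was similar in size but not in make-up. Over 9 genes it was 73.2 FPKM in the culture and 61.3 in the tissue. Hes1 held 46.3% of it in mNRPCs and 24.7% in retina. Hes6, whose protein can oppose Hes1, was at 38.6 and 23.3 FPKM and held 52.7% and 38.1%. In mNRPCs Hes7 (0.760%) and Hey1 (0.251%) made up the rest. In retina Hey2 held 15.3%, Hey1 10.7% and Hes5 9.14%, with small amounts of Hes7, Heyl and Hes3. Heyl, a target in mural cells, had 0.263 FPKM in the tissue and was listed at 0 in the culture.

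The order of the members differed between the libraries. In mNRPCs it ran from Notch2 through Rbpj, Hes1, Notch1, Dll1 and Jag1 to Notch3 and Hey1, with Hes5 and Hey2 listed at 0. The counting intervals of Rbpj and Hes1 overlapped, as did those of Notch3, Hey1, Hes5 and Hey2, each with the next in order. In retina the order was Jag1, Hes1, Rbpj, Hey2, Hey1, Hes5, Dll1, Notch1, Notch2 and Notch3. The neighbours from Rbpj to Dll1 overlapped, each with the next, and so did Notch1 and Notch2. Jag1 and Hes1 stood apart at the upper end of the retina order and Notch3 at the lower end.

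**Figure D3:**
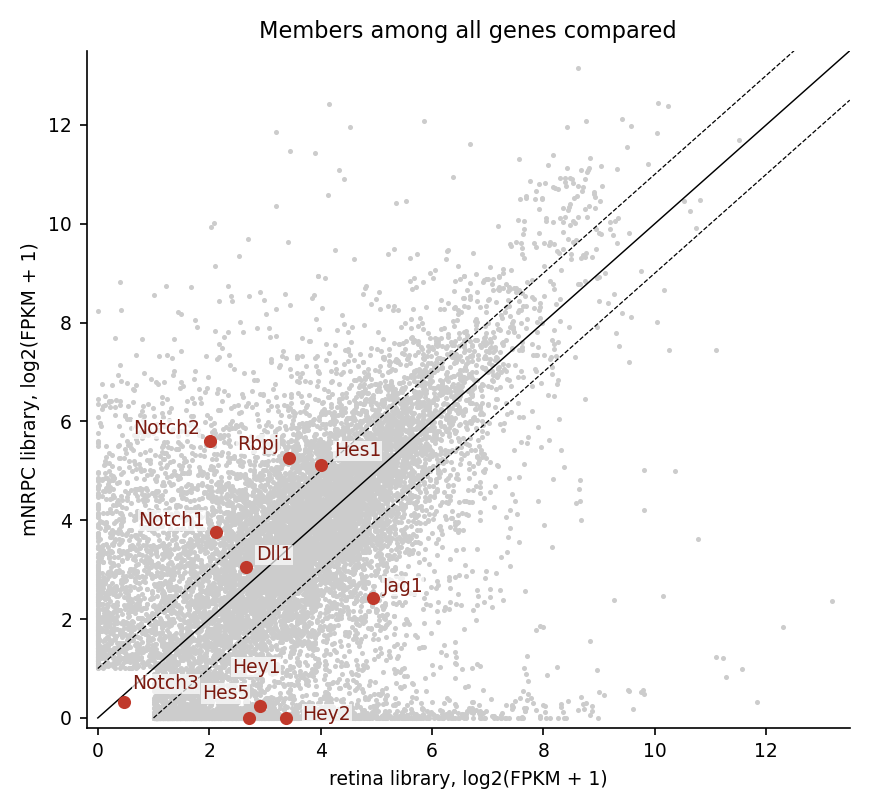
Level in the retina library (horizontal axis) against level in the mNRPC library (vertical axis), both as log2(FPKM + 1), for 13780 genes compared (grey) and the 10 members (red). The solid line marks equal levels and dashed lines a log2 ratio of 1 in size, and of the members Notch2 lies farthest above the lines, and Hes5, Hey1 and Hey2 lie on or close to the retina axis.

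Other genes of the pathway were taken from a list of 68 in 10 roles, all of which were in the table, and 57 reached 1 FPKM. Of these, 15 were at least 2-fold higher in mNRPCs (26.3%), 16 at least 2-fold lower (28.1%) and 26 within 2-fold, with a median log2 ratio of 0.14. As a whole the list was near the background of 24.5% and 30.0%. After rescaling to a common sum 8 were higher and 21 lower, and among all genes compared 18.0% were then higher and 39.1% lower. The roles are described in turn, with no test between them.

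Of 10 genes for receptor cleavage, 6 were at least 2-fold higher in mNRPCs and none was lower, beside 24.5% and 30.0% of all genes, with a median log2 ratio of 1.22. Adam10, which makes the first ligand-induced cut, was at 60.9 FPKM in the culture and 15.3 in the tissue (log2 ratio 1.93). The gamma-secretase subunit genes Aph1a (61.1 and 17.0 FPKM, 1.78) and Ncstn (72.4 and 20.8 FPKM, 1.75) had similar ratios. Psen2, a gene for the catalytic subunit, was within 2-fold at 9.70 and 10.7 FPKM (−0.13). After rescaling to a common sum Adam10, Aph1a and Ncstn remained the 3 higher genes of this role, beside 18.0% of all genes, and the median was 0.72 with an all-gene median of −0.57.

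Genes for ligand endocytosis and for receptor glycosylation had 2 lower genes each, beside 24.5% higher and 30.0% lower among all genes compared. Of 4 genes for ligand endocytosis 2 were lower and none passed the threshold upwards. Neurl1a, for a ubiquitin ligase of ligands, was at 0.155 and 17.7 FPKM (log2 ratio −4.02) and Mib2 at 4.60 and 15.2 (−1.53), while Mib1 was at 15.9 and 21.0 (−0.38). Neurl1b was at 1.68 and 0.438 FPKM (0.90), a plain ratio of 3.83 with a counting interval of 2.11 to 7.48. Of 5 glycosyltransferase genes, Rfng was at 8.32 and 19.3 FPKM (−1.12) and Mfng at 0.150 and 3.40 (−1.94), while Lfng, another Fringe gene, was at 10.3 and 4.85 (0.95), a plain ratio of 2.12. With a pseudocount of 0.5 both Neurl1b and Lfng passed the 2-fold threshold. Of 5 receptor inhibitors 2 were higher and 1 was lower, beside the same shares, and after rescaling to a common sum 1 was higher and 2 were lower, beside 18.0% and 39.1% of all genes under that scaling. Numbl was at 22.9 and 7.49 FPKM (1.49) and Nedd4 at 316 and 115 (1.45). Fbxw7, for the ubiquitin ligase of the freed Notch domain, was at 7.68 and 22.1 FPKM (−1.41).

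Nuclear cofactors were compared next. Of 8 genes of the transcription complex 3 were higher and none was lower, beside 24.5% and 30.0% of all genes. The Mastermind genes Maml2 and Maml3 had 7.41 and 5.01 FPKM in the culture against 1.93 and 1.46 in the tissue (log2 ratios 1.52 and 1.29), and the acetyltransferase gene Kat2a was at 19.3 and 9.07 (1.01). After rescaling to a common sum this role had 1 higher and 3 lower genes, beside 18.0% and 39.1% of all genes. Trimmed mean scaling gave 2 higher genes and 1 lower, Ep300, beside 22.8% and 31.9%. A pseudocount of 0.1 gave 3 higher genes and 1 lower, again Ep300, beside 26.5% and 33.1%. Of 13 corepressor genes at or above 1 FPKM, 3 were higher and 3 were lower (23.1% each), near the 24.5% and 30.0% of all genes. Tle1, a partner of Hes proteins, was at 36.8 and 11.3 FPKM (1.62), the histone deacetylase gene Hdac1 at 71.2 and 24.4 (1.51), and Ctbp2, which also encodes a protein of ribbon synapses, at 18.3 and 51.9 (−1.46).

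Further downstream, feedback genes and proneural genes were compared. Dtx1, a Notch-responsive Deltex gene, had 9.17 FPKM in the tissue and was listed at 0 in the culture. Nrarp, which encodes a feedback inhibitor of the Notch complex, was at 0.518 and 4.23 FPKM (log2 ratio −1.78). Of the other Deltex genes, Dtx4 was at 20.4 and 6.51 FPKM (1.51) and Dtx3 at 61.5 and 130 (−1.06). Of 4 proneural genes at or above 1 FPKM, 3 were lower in mNRPCs, Neurod1 and Neurog2 on a listed 0, beside 30.0% of all genes. Neurod1, expressed by photoreceptors, had 263 FPKM in the tissue and was listed at 0 in the culture. Neurod4 was at 0.0263 FPKM in the culture, an estimated 0.577 fragments, and at 57.3 in the tissue. Neurog2 had 1.20 FPKM in the tissue and was listed at 0 in the culture.

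**Figure D4:**
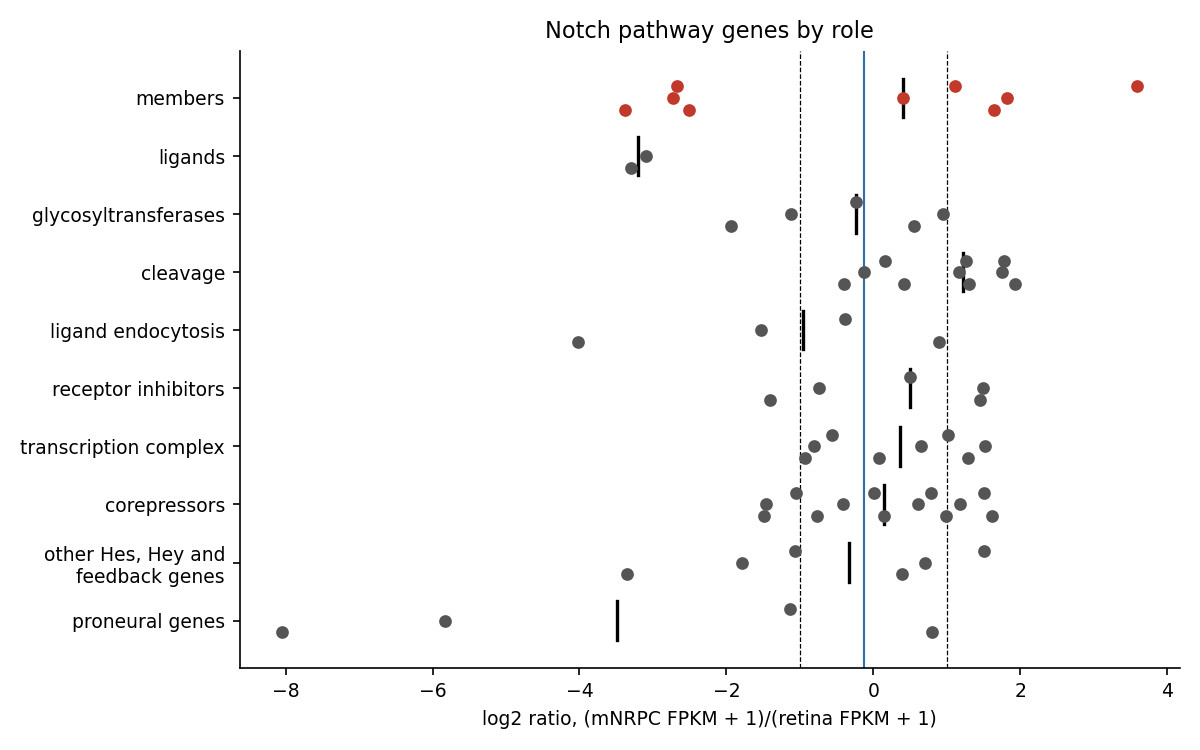
Log2 ratio of (mNRPC FPKM + 1) to (retina FPKM + 1) (horizontal axis) for members (red) and other pathway genes (grey) with at least 1 FPKM in 1 library, by role. Black bars are medians, the blue line is the median of all genes compared (−0.12), dashed lines mark a log2 ratio of 1 in size, and cleavage genes have a median of 1.22, and the ligands Jag2 (mostly on predicted transcripts) and Dner both lie near −3.

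Markers of several cell types also differed between the libraries, and their part in the results above was not tested. The counts below stand beside 24.5% higher and 30.0% lower among all genes compared. Of 8 Müller glia markers 6 were lower in mNRPCs, with Kcnj10 listed at 0 and Rlbp1 at 0.0986 FPKM against 202 in retina, while Vim and Sox9 were higher. The Müller sum of 3187 FPKM in the culture and 1904 in the tissue was led by Vim in mNRPCs. Of 7 endothelial markers 5 reached 1 FPKM, of which 4 were lower and none was higher, and Cdh5, Cldn5 and Tie1 were listed at 0 in mNRPCs. The endothelial sums were 2.72 and 43.6 FPKM, led by Egfl7 in the culture (2.59) and by Kdr in the tissue (29.5). Of 6 pericyte and mural markers 3 reached 1 FPKM, of which Pdgfrb and Acta2 were higher and Rgs5 was lower. Rgs5, Kcnj8 and Abcc9 were listed at 0 in mNRPCs, and the sums were 14.6 and 15.1 FPKM. Of 4 astrocyte markers 3 reached 1 FPKM and all 3 were lower, with sums of 0.107 and 14.5 FPKM. Gfap and Pax2 were listed at 0 in mNRPCs. All 6 rod markers were lower, with sums of 9.12 and 19220 FPKM. The 5 microglia markers summed to 1.23 and 1.78 FPKM, led in both by Tmem119 at 1.22 and 0.880. Aif1, Cx3cr1 and P2ry12 were listed at 0 in mNRPCs. The 5 fibroblast markers summed to 5.16 and 5.32 FPKM, with Lum listed at 0 in both. In these lists 1 microglia and 3 fibroblast markers reached 1 FPKM, all within 2-fold.

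The progenitor label was checked in the same way. Of 9 retinal progenitor markers 3 were higher in mNRPCs (Sox2, Ccnd1 and Mki67), Pax6 and Six3 were within 2-fold, and 4 were lower, shares of 33.3% and 44.4% beside 24.5% and 30.0% of all genes. Among the latter, Rax and Six6, transcription factors of the early eye field, had 81.7 and 19.3 FPKM in the tissue and were listed at 0 in the culture. The summed markers were at 803 FPKM in the culture and 351 in the tissue. Ccnd1 (371 and 4.26 FPKM) and Sox2 (231 and 18.5) led this sum in the culture, so it does not describe the 4 lower markers. The cells are called mNRPCs here by their label.

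Genes outside the pathway with the nearest levels were looked up for Notch1 and Hes1 by Euclidean distance on log2(FPKM + 1) over the 2 libraries. For Notch1 these were Orai1, Spred2 and Pitrm1, at distances of 0.037 to 0.051. For Hes1 these were Tmem184b, Raver1 and Fubp3, at 0.0082 to 0.037. Within a distance of 0.25 there were 49 genes around Notch1 and 96 around Hes1, so many genes share such a pair of levels.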

How the data were processed

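RNA sequencing values of 1 mNRPC library and 1 retina library were used, grouped by the labels. The deposited values are FPKM per RefSeq transcript, made by the authors. The study's methods give mapping with Bowtie 2 under altered default settings and FPKM by eXpress, while the submitters' processing notes name TopHat2 2.0.10 and GRCm38.p3. Reads shared between transcripts are split by estimation, so sums per gene are firmer than single rows.

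Rows (106754) were matched to symbols without accession version through RefSeq (GRCm38.p6) and GENCODE M21, which matched 69.6%. Unmatched rows held 6.80% of the mNRPC FPKM and 10.1% of the retina FPKM and could include predicted transcripts of any gene. FPKM below 1e-06 was read as 0. Depth was estimated from 5531 single-transcript genes of at least 1500 bp, as the value at which FPKM times length gathers for 1 fragment. Shortest lengths of 1000 and 2500 bp gave 6560000 and 6470000 fragments for mNRPC and 4840000 and 4870000 for retina. Of the low rows, 51.8% in mNRPC and 48.4% in retina lay within 0.2 of a whole fragment, where evenly spread values would give 40%, so no counts were tested and the estimated depth, with the fragment numbers and intervals that rest on it, is approximate. Gene lengths are those of the longest curated transcript. The pseudocount of 1 follows the study. The estimator and the 2-fold rule were run on simulated counts of single-transcript genes, the rule with planted changes larger than 2-fold in genes well above 1 FPKM. Reads split between transcripts were not simulated and the rule was not checked on low genes. The run therefore cannot support the intervals or calls for those. Computations used Python 3.11.15, pandas 2.3.3 and scipy 1.17.1.

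The members, lists and alternatives were chosen with earlier results of these data known. Other pathway genes were named by rule, as up to 3 per role with at least 5 FPKM and a log2 ratio of at least 1 in size, plus Notch4, Dll3, Dll4, Jag2 and Heyl. Psen2, Mib1, Neurl1b, Mfng, Lfng, Hes6, Nrarp and Neurog2 were named after their values were seen. Marker lists covered 8 cell types. Some listed genes are counted but not reported singly here. Alternatives varied pseudocount, scaling, rows, filter and threshold.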

Additional observations from a re-analysis of the deposited data

How the results depend on the processing

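The split of 4 higher and 4 lower members was the same with a pseudocount of 0.1 or 0.5, with curated rows only, after upper quartile scaling, with the highest row of each gene, at a minimum of 5 FPKM and without a filter. Rescaling to a common sum and trimmed mean scaling each left 3 higher members, without Hes1. A 4-fold threshold left 1 higher member, Notch2, and 4 lower, and 0 higher and 6 lower among the 57 other pathway genes, beside 11.2% higher and 14.1% lower among all genes at that threshold. Rescaling to a common sum left 8 other pathway genes higher and 21 lower, where 18.0% and 39.1% of all genes compared were higher and lower. A pseudocount of 0.1 or 0.5 gave 19 higher other pathway genes in place of 15, while the share of all genes went from 24.5% to 26.5% or 25.7%. Rescaling moved the median of the members from 0.41 to −0.032, with the median of all genes moving from −0.12 to −0.57. Relative to the median of all genes, Hes1 was at 1.23 as deposited and 1.19 after rescaling. Without a filter the members' median was 0.13, because Notch3 then entered. Of 70 values of single members under alternatives, 51 lay within counting error of the reported value and 19 moved. Among these Dll1 alone changed sign, with rescaling to a common sum. Notch1, Notch2, Notch3 and Hey2 have 1 transcript row each, so the choice of rows could not change their values. For Dll1, Jag1, Hes1, Hes5 and Hey1 the settings curated rows only and highest row only gave the same value, counted under both. Depth limits Hes5, Hey1 and Hey2 in mNRPCs, each at or under 3 estimated fragments. No paired analysis was possible because there was 1 library per group.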
